A study of Mus with 9 samples.

Results

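The genes described here encode proteins of the spliceosome, its SR protein partners and Lsm proteins, some of which work outside splicing, as measured in the hippocampus of senescence-accelerated mice. They are the probe sets whose symbol is a small nuclear ribonucleoprotein gene (Snrp), a numbered Lsm gene, an SF3a or SF3b gene (Sf3a, Sf3b), a numbered SR protein gene (Srsf) or a numbered pre-mRNA processing factor gene (Prpf). This rule uses the symbol and no measured value, and it found 58 of 22206 probe sets, each for a different gene. The 58 were sorted by role into 8 Sm ring proteins, 9 Lsm ring proteins, 4 other Lsm proteins, 4 proteins specific to the U1 or U2 particle, 2 small SF3b proteins, 7 SF3a and large SF3b proteins, 13 PRPF proteins and 11 SR proteins. The Sm and Lsm ring proteins, 17 genes in all, formed the class of small Sm/Lsm proteins, and the SF3a, large SF3b and PRPF proteins, 20 genes, formed the class of large splicing factors.

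The study asked what oral trigonelline (TG), a plant alkaloid, does to gene expression in the hippocampus of SAMP8 mice, a strain with accelerated aging and memory decline. Male mice aged 16 weeks were SAMR1, the control strain with normal aging, given vehicle, SAMP8 given vehicle, or SAMP8 given TG at 5 mg/kg per day. TG was given for 30 days and on through 8 days of a water maze test, which all 3 groups took. Whole hippocampal RNA of 3 mice in each of these 3 groups was hybridized to gene-level microarrays, 9 in all. Both SAMP8 groups carry the same strain background and age, SAMR1 is an inbred strain of its own and not a littermate control, and all mice were housed individually.

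The tables used here give 1 average per group for each probe set, on a log2 scale rounded to 2 decimals, and no value for a single mouse. The spread between mice cannot be computed from these averages, so no test was run, and every difference below is a description. The p-values that the authors list beside the averages belong to their own comparisons and were not used. Rounding alone leaves an error of up to 0.01 on a difference, and the error between mice is not included in it. The SAMP8 averages were the same numbers in both tables, so each comparison with SAMP8 rests on the same SAMP8 arrays, and a high or low SAMP8 average enters both with opposite sign. Because the tissue was bulk hippocampus, fewer cells of a type and less RNA per cell cannot be told apart.

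As background, introns are removed from pre-mRNA by the spliceosome, which is built from small nuclear RNAs and proteins. Sm proteins form a ring around the U1, U2, U4 and U5 RNAs, and Lsm proteins form the related ring on U6. The SF3a and SF3b complexes belong to the U2 particle and hold it at the branch site of the intron, while PRPF proteins build the tri-snRNP and the catalytic core. SR proteins bind exons and help choose which splice sites are used, a step that neurons use widely to make isoforms of channels and synaptic proteins.

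None of the 58 genes differed by more than 1.5-fold between SAMP8 and SAMR1 or between TG-treated SAMP8 and SAMP8. In SAMP8 against SAMR1, 0 of the 58 lay beyond this limit in either direction, while 5.00% of all 22206 probe sets were higher and 6.08% were lower. In TG-treated SAMP8 against SAMP8, the count was again 0 in either direction, beside 4.48% of all probe sets higher and 3.74% lower. Across TG-treated SAMP8 and SAMR1, 1 gene, Snrpd2, was higher by more than 1.5-fold and 0 were lower, beside 5.62% and 4.83% of all probe sets. Lsm3 and Sf3b2, both at 0.58, lie within rounding of the limit of 0.585, and subtracting the median over all probe sets raised the count from 1 to 3. Differences between 1.3-fold and 1.5-fold were present, with values that varied by class.

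With the limit set at 1.3-fold, 10 genes were higher and 2 lower in SAMP8 than in SAMR1, which is 17.2% and 3.45% of the 58 beside 13.0% and 13.6% of all probe sets. The 10 were Lsm3, Snrpb2, Sf3a3, Sf3b1, Sf3b2, Sf3b3, Prpf6, Srsf4, Srsf6 and Srsf11, so 4 of them belong to SF3 and 3 are SR proteins. In TG-treated SAMP8 against SAMP8, 5 were higher (Snrpd2, Snrpf, Snrpa, Sf3b6 and Prpf38a) and 8 were lower (Snrpd1, Lsm6, Sf3b1, Prpf4b, Prpf40b, Srsf4, Srsf5 and Srsf7). That is 8.62% and 13.8% of the 58, near the 12.1% and 11.2% of all probe sets. In TG-treated SAMP8 against SAMR1, 12 were higher and 6 lower, which is 20.7% and 10.3% beside a background of 13.2% and 13.1%. The median difference over the 58 was 0.075 in SAMP8 against SAMR1 and 0.01 in TG-treated SAMP8 against SAMP8, while that over all probe sets was 0.00 and 0.01.

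**Figure D1:**
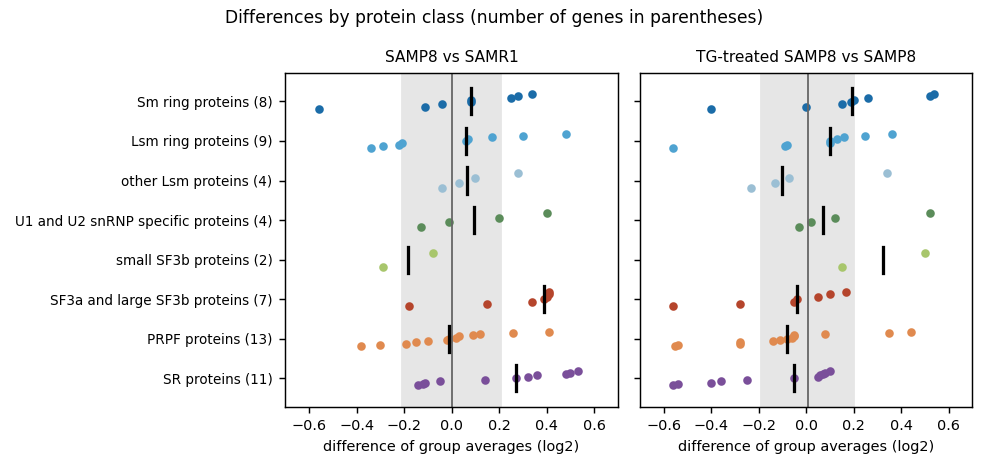
Each point is 1 gene, and its position is the difference of the group averages in log2 units, at left for SAMP8 minus SAMR1 and at right for TG-treated SAMP8 minus SAMP8. Black bars mark the median of each protein class, the grey line marks the median of all 22206 probe sets and the grey band their interquartile range (from -0.21 to 0.21 at left, from -0.19 to 0.20 at right). SF3a and large SF3b genes have a median of 0.39 at left, to the right of the band, and -0.04 at right.

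The SF3a and large SF3b genes were the class with the highest median in SAMP8 against SAMR1, at 0.39. Of these 7 genes, 6 were higher in SAMP8 and 4 of them by more than 1.3-fold, beside 49.5% and 13.0% of all probe sets. In the 25% of probe sets with the strongest signal, 19.9% were higher by more than 1.3-fold. Sf3b1 encodes the large scaffold subunit of SF3b that grips the branch site, and its averages were 11.52 in SAMR1, 11.91 in SAMP8 and 11.35 with TG. It was thus higher by 0.39 in SAMP8 than in SAMR1 and lower by 0.56 with TG than in SAMP8, which puts TG-treated SAMP8 below both other groups. Sf3b3, the subunit packed against Sf3b1, had averages of 11.59, 11.99 and 11.71 in the same order. Here too SAMP8 was the highest group, by 0.40 over SAMR1, and the TG-treated average lay between the other two.

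Other SF3 genes that were higher in SAMP8 stayed near that level with TG. Sf3b2, which binds RNA beside the branch site, averaged 8.61 in SAMR1, 9.02 in SAMP8 and 9.19 with TG. Sf3a3, a subunit of the SF3a complex, averaged 9.31, 9.72 and 9.77. Both were 0.41 higher in SAMP8 than in SAMR1, and with TG they were a further 0.17 and 0.05 higher. Sf3a1, the SF3a subunit that contacts U1 RNA, averaged 10.83, 11.17 and 11.13, and Sf3b4 averaged 8.74, 8.89 and 8.84. The single gene of the class that was lower in SAMP8 was Sf3a2, whose averages were 8.93 in SAMR1, 8.75 in SAMP8 and 8.85 with TG. With TG, the class median was -0.04, with 3 genes higher and 4 lower than in SAMP8, and the range ran from -0.56 for Sf3b1 to 0.17 for Sf3b2.

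The 2 small SF3b proteins within the rule were not higher in SAMP8 than in SAMR1. Sf3b6, which lies at the branch point adenosine, averaged 11.99 in SAMR1, 11.91 in SAMP8 and 12.41 with TG, a difference of 0.50 with TG. Sf3b5, a small subunit held inside SF3b, averaged 7.19, 6.90 and 7.05. Both were lowest in SAMP8, while the large subunits Sf3b1, Sf3b2, Sf3b3 and Sf3b4 were higher in SAMP8 than in SAMR1. In that comparison Sf3b5 was at -0.29, while Sf3b6 at -0.08 and Sf3b4 at 0.15 lay within the interquartile range of all probe sets (-0.21 to 0.21). Whether small and large subunits differ was not tested.

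SR protein genes had a median of 0.27 in SAMP8 against SAMR1, with 7 of 11 higher, beside 49.5% of all probe sets. Srsf6 averaged 7.44 in SAMR1, 7.97 in SAMP8 and 7.61 with TG, and its 0.53 was the highest difference among the 58 genes in that comparison. Srsf11 averaged 10.54, 11.04 and 10.79, and Srsf4 averaged 10.64, 11.12 and 10.58. Srsf7, an SR protein with a zinc knuckle, averaged 8.36, 8.72 and 8.32. In these 4 genes SAMP8 was the highest group, and the TG-treated averages of Srsf4 and Srsf7 lay within 0.06 of SAMR1.

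Srsf5 was the SR gene with the lowest difference with TG. It averaged 13.89 in SAMR1, 14.03 in SAMP8 and 13.47 with TG, so it was lower with TG by 0.56 than in SAMP8 and by 0.42 than in SAMR1. Srsf1, a general activator of exon inclusion, averaged 12.30, 12.62 and 12.69. Srsf3, the smallest of the classical SR proteins, averaged 10.36, 10.63 and 10.73. These 2 genes were higher in both SAMP8 groups than in SAMR1, and the TG-treated averages were the highest.

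The remaining SR genes, Srsf2, Srsf9, Srsf10 and Srsf12, lay between -0.14 and -0.05 in SAMP8 against SAMR1. Srsf10, a protein that represses splicing when it is dephosphorylated, was at the low end, with averages of 10.37 in SAMR1, 10.23 in SAMP8 and 10.29 with TG. Against SAMP8, the TG-treated averages of the 11 SR genes had a median of -0.05. By more than 1.3-fold, 3 were lower (Srsf4, Srsf5 and Srsf7) and none higher, the highest being Srsf3 at 0.10. Over all probe sets, 11.2% were lower and 12.1% higher by as much.

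**Figure D2:**
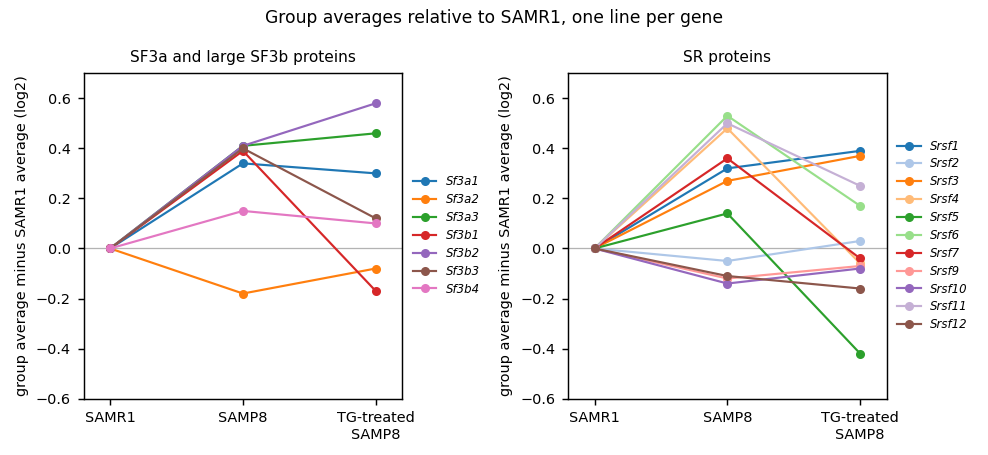
Each line is 1 gene, and the vertical axis is its group average minus its SAMR1 average in log2 units for SAMR1, SAMP8 and TG-treated SAMP8, with SF3a and large SF3b genes at left and SR genes at right. Sf3b1 ends below SAMR1 at -0.17 while Sf3b2 ends at 0.58, and Srsf5 ends lowest among the SR genes at -0.42.

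PRPF genes showed no common direction in SAMP8 against SAMR1, with a median of -0.01, 6 higher and 7 lower. Prpf6, a bridge between the U5 and U4/U6 particles, averaged 10.28 in SAMR1, 10.69 in SAMP8 and 10.61 with TG. Prpf8, the protein that forms the cavity of the catalytic core, averaged 12.12, 12.38 and 12.27. Prpf3, a U4/U6 protein, averaged 6.91, 6.53 and 6.48. Prpf6 and Prpf3 were the extremes, at 0.41 and -0.38, and the second lies within rounding of the 1.3-fold limit, which is 0.379 in log2 units.

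With TG, 10 of the 13 PRPF genes were lower than in SAMP8, by up to 0.55, beside 48.3% of all probe sets. The class median was -0.08. Prpf40b, a relative of a yeast U1 protein, averaged 6.83 in SAMR1, 6.86 in SAMP8 and 6.31 with TG. Prpf4b, a kinase that phosphorylates spliceosome proteins, averaged 11.05, 11.03 and 10.49. For both, SAMR1 and SAMP8 differed by at most 0.03, and the TG-treated average was lower than both by more than 0.5. Prpf39, another U1-associated protein, was lower by 0.28 with TG, as was Prpf38b. Prpf38a, a protein that joins the spliceosome before its activation, was the highest with TG, with averages of 6.49, 6.19 and 6.63. Prpf31, a U4/U6 protein, averaged 9.27, 9.08 and 9.43, so in these 2 genes SAMP8 was the lowest group. The third gene that was higher with TG was Prpf19, a ubiquitin ligase of the catalytic spliceosome, at 0.08.

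**Figure D3:**
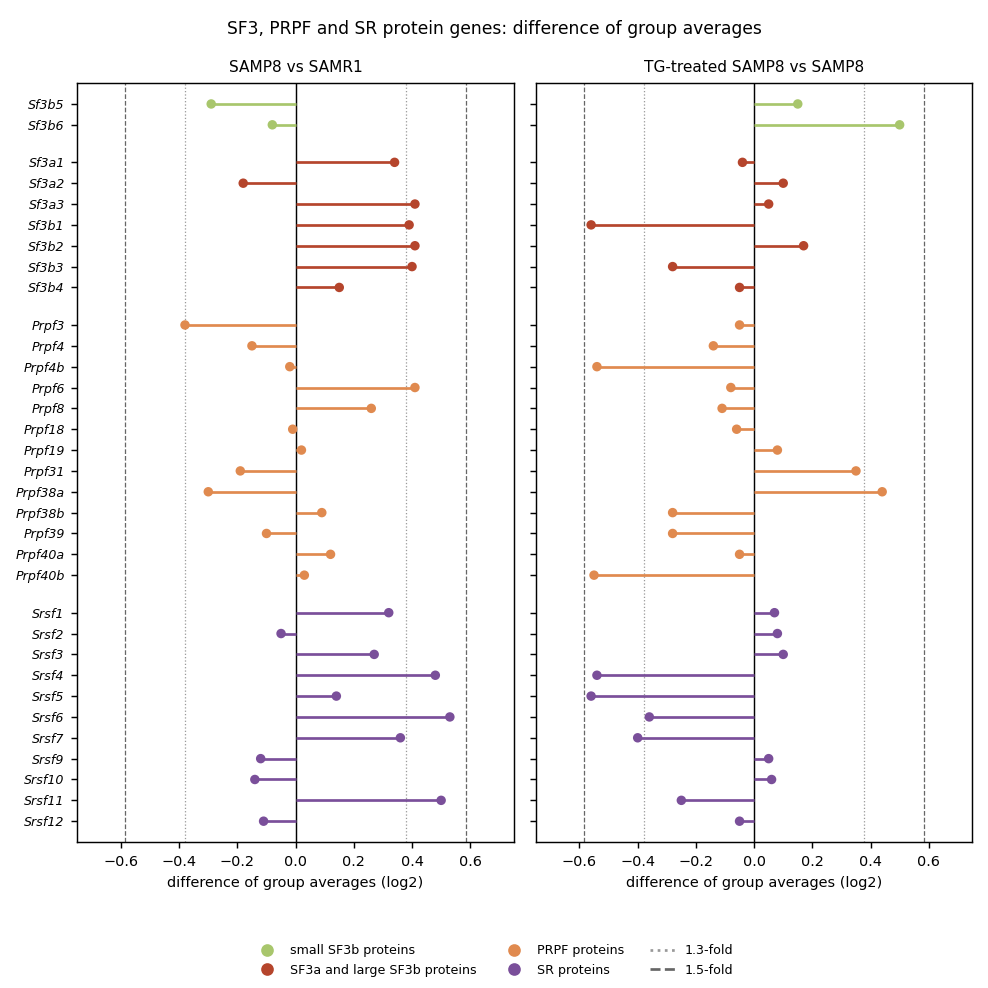
Bars run from 0 to the difference of group averages in log2 units for each SF3, PRPF and SR gene, at left for SAMP8 minus SAMR1 and at right for TG-treated SAMP8 minus SAMP8, with dotted lines at 1.3-fold and dashed lines at 1.5-fold. No bar crosses a dashed line, and Sf3b1 and Srsf5 come closest at right, both at -0.56.

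Among the Sm ring genes, 6 of 8 were higher in TG-treated SAMP8 than in SAMP8, 1 was lower and 1 had the same average. The class median was 0.195. Over all probe sets, 50.0% were higher and 48.3% lower, and of those for genes up to 10 kb, 60.5% were higher. Snrpd2 averaged 11.29 in SAMR1, 11.57 in SAMP8 and 12.11 with TG. It was 0.54 higher with TG than in SAMP8 and 0.82 higher than in SAMR1, the single difference among the 58 genes beyond 1.5-fold without centering. Snrpf averaged 5.48, 5.37 and 5.89, and Snrpe averaged 8.80, 9.05 and 9.24. In all 3 of these genes the TG-treated average was the highest.

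Snrpd1, the direct partner of Snrpd2 in the ring, was the Sm gene that was lower with TG. It averaged 7.52 in SAMR1, 7.86 in SAMP8 and 7.46 with TG, the reverse of its partner in this comparison. Snrpg averaged 6.10, 5.54 and 5.80, and its difference of -0.56 was the lowest of the 58 in SAMP8 against SAMR1. Snrpd3 averaged 9.53 in SAMR1 and 9.61 in both SAMP8 groups. The members of the ring, which bind each other in equal numbers in the assembled particle, thus spread from -0.56 to 0.34 in SAMP8 against SAMR1 and from -0.40 to 0.54 with TG.

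Snrpb and Snrpn encode near-identical Sm proteins that take the same place in the ring, the second being the form made in neurons. Snrpb averaged 9.55 in SAMR1, 9.51 in SAMP8 and 9.71 with TG. Snrpn averaged 18.31, 18.39 and 18.54, near the top of the array's range, whose highest average was 19.93, and its probe set also names Snurf, an upstream frame of the same transcript. Both were highest with TG, by 0.20 and 0.15 over SAMP8, and how far transcripts of 1 gene hybridize to the other's probes was not tested.

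The Lsm ring genes had medians of 0.06 in SAMP8 against SAMR1 and 0.10 with TG. Lsm3 averaged 8.60 in SAMR1, 9.08 in SAMP8 and 9.18 with TG, higher in both SAMP8 groups. Lsm2, its neighbor in the ring, averaged 4.50, 4.16 and 4.52. It was lowest in SAMP8, and its averages are among the lowest of the 58, where the array has little signal. Lsm6 averaged 7.24, 7.31 and 6.75, so SAMR1 and SAMP8 lay within 0.07 of each other and TG-treated SAMP8 was lower by 0.56. Lsm1, which marks the cytoplasmic ring that promotes mRNA decay, was -0.29 in SAMP8 against SAMR1 and 0.13 with TG. Lsm8, which takes its place in the nuclear ring on U6, had 0.17 and -0.09, the opposite signs.

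Lsm10 and Lsm11 belong to the U7 particle, which trims histone mRNAs and does not splice. Lsm10 was nonetheless counted with the Lsm ring genes, and so in the small class, while Lsm11 was counted with the other Lsm genes. Lsm10 averaged 5.34 in SAMR1, 5.64 in SAMP8 and 5.74 with TG, and Lsm11 averaged 7.62, 7.65 and 7.58. Among the other Lsm genes, Lsm12 averaged 12.34, 12.62 and 12.39, highest in SAMP8. Lsm14a and Lsm14b are related proteins of cytoplasmic granules that hold silent mRNA. Lsm14b averaged 10.49, 10.59 and 10.93, and Lsm14a averaged 11.90, 11.86 and 11.73. The TG-treated average was the highest of the 3 groups for Lsm14b and the lowest for Lsm14a.

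Of the proteins specific to 1 particle, Snrpa, which binds a stem loop of U1 RNA, averaged 9.26 in SAMR1, 9.13 in SAMP8 and 9.65 with TG. Snrpb2, its U2 counterpart, averaged 7.91, 8.31 and 8.43. The first was higher in the TG-treated group alone, by 0.52 over SAMP8, while the second was 0.40 higher in SAMP8 than in SAMR1. Snrpa1, the partner of Snrpb2 on U2 RNA, averaged 8.41, 8.61 and 8.58. Snrpc, the U1 protein at the 5′ splice site, averaged 5.34, 5.33 and 5.35 and hence did not differ beyond 0.02.

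**Figure D4:**
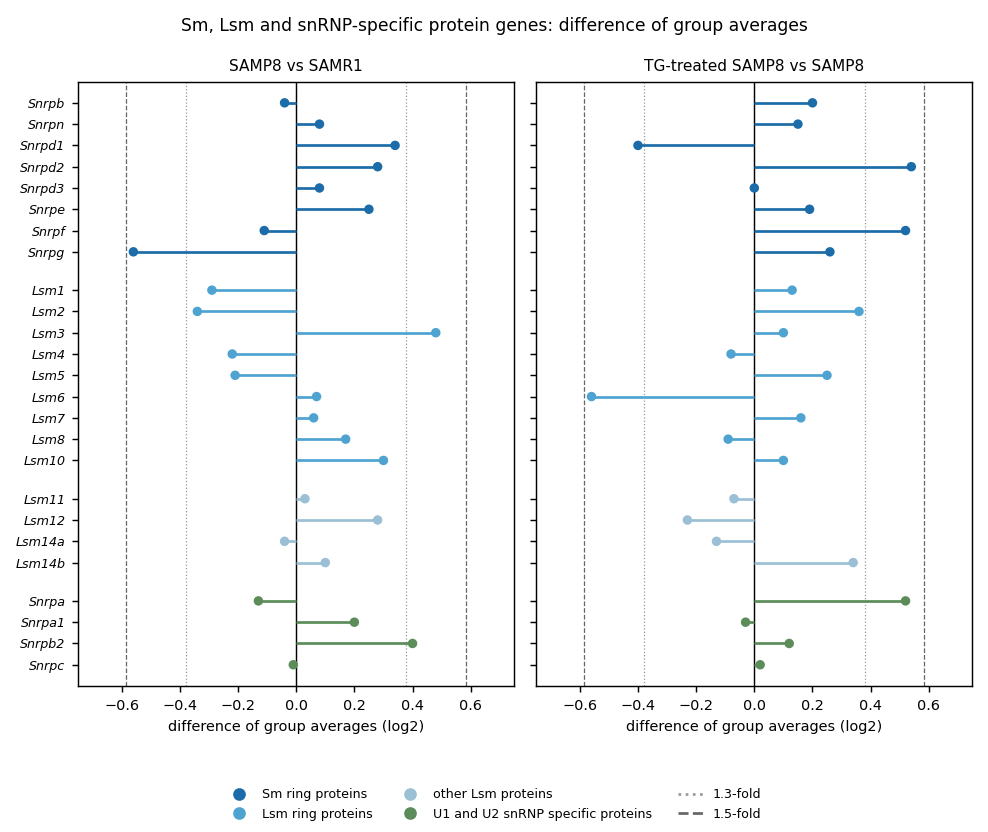
Bars run from 0 to the difference of group averages in log2 units for each Sm, Lsm and U1 or U2 specific gene, at left for SAMP8 minus SAMR1 and at right for TG-treated SAMP8 minus SAMP8, with dotted lines at 1.3-fold and dashed lines at 1.5-fold. Snrpg has the longest bar at left (-0.56), and at right Snrpd2 (0.54) and Lsm6 (-0.56) point in opposite directions.

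Across the 3 groups, SAMP8 had the highest average in 20 of the 58 genes and the lowest in 16. The averages went up from SAMR1 through SAMP8 to TG-treated SAMP8 in 13 genes and down in 8, and 1 gene had a tie. Since the order in the first 36 genes turns on the SAMP8 arrays that both comparisons share, it is given as a count and nothing is read from it.

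Small Sm/Lsm proteins and large splicing factors had nearly equal medians in SAMP8 against SAMR1, at 0.07 and 0.06. In TG-treated SAMP8 against SAMP8 their medians were 0.15 and -0.055, a gap of 0.205: 12 of 17 small protein genes were higher with TG and 14 of 20 large factor genes were lower, beside 50.0% of all probe sets higher and 48.3% lower. In TG-treated SAMP8 against SAMR1 the medians were 0.08 and 0.085, a gap of -0.005. That value depended on the genes kept: it was 0.075 without the weakest 25% by signal, 0.27 among genes spanning up to 10 kb, -0.25 from 10 to 30 kb and 0.235 in the 25% with the strongest signal. A difference of 2 differences carries up to 0.02 of rounding error, and the part of variation between mice in the gap of 0.205 was not tested.

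Genes of the 2 classes also differ in length. On the GRCm38.p6 annotation, the small protein genes span a median of 6.6 kb (2.0 to 467.7 kb, the longest being the Snrpn locus), and the large factor genes 22.1 kb (5.1 to 56.7 kb). Gene span moved with the difference over the whole array: in TG-treated SAMP8 against SAMP8 the median over all probe sets was 0.07 for genes up to 10 kb, 0.01 from 10 to 30 kb, -0.06 from 30 to 100 kb and -0.12 above 100 kb. In SAMP8 against SAMR1 the same medians were -0.05, 0.01, 0.05 and 0.08, the opposite order, and the 2 comparisons share the SAMP8 arrays. Within genes up to 10 kb, the small protein genes had a median of 0.195 (12 genes) and the large factor genes -0.05 (3 genes) with TG. Within 10 to 30 kb, the small protein genes had -0.20 (4 genes) and the large factor genes -0.04 (11 genes), so the direction turned. These splits were chosen after seeing the data, and the part of gene span in the gap between the classes was not tested.

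**Figure D5:**
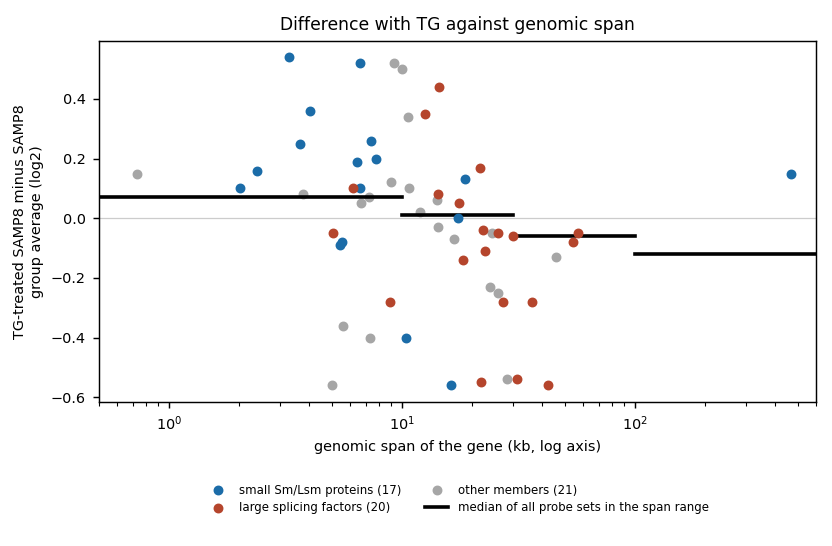
Each point is 1 of the 58 genes, with its genomic span in kb on a log axis and its TG-treated SAMP8 minus SAMP8 difference in log2 units on the vertical axis, colored by class. Black bars give the median of all probe sets in each span range and step down from 0.07 to -0.12, and the small protein genes above 0.2 span less than 10 kb.

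Signal level moved with the differences as well. Of the 58 genes, 35 lay in the highest 25% of all probe sets by mean signal, among them 16 of the 20 large factors and 6 of the 17 small proteins. In that top 25% the median over all probe sets was 0.12 in SAMP8 against SAMR1, with 19.9% higher and 5.19% lower by more than 1.3-fold, and -0.06 in TG-treated SAMP8 against SAMP8, with 10.1% higher and 16.8% lower. In SAMP8 against SAMR1 the next 25%, which held 16 of the 58, had 18.9% higher and 12.8% lower, and the 25% below that, with 5 of the 58, had 9.0% and 21.5%. The weakest 25%, with 2 of the 58, had 4.23% and 14.7%. Within the top 25%, the small and large classes had medians of 0.17 and -0.055 with TG, and in the 25% just below it -0.085 (6 genes) and -0.05 (3 genes). The part of signal level in these results was not tested.

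Partner genes outside the rule were described from lists. A list of 49 further snRNP and spliceosome genes, 48 of them on the array with 50 probe sets, had 6 probe sets higher and 0 lower by more than 1.5-fold in SAMP8 against SAMR1, beside 5.00% and 6.08% of all probe sets. The same background, and the 4.48% higher and 3.74% lower with TG, holds for each list below. The RNA helicase Dhx16, which remodels the spliceosome before the first catalytic step, averaged 8.12 in SAMR1, 9.27 in SAMP8 and 8.73 with TG. Dhx8, the helicase that releases the spliced mRNA, averaged 9.63, 10.47 and 10.22. The other 4 were the second-step factor Slu7 (0.73), Xab2 (0.69) and Crnkl1 (0.67) of the Prp19-related complexes, and Snrnp48 (0.66) of the minor spliceosome. With TG, 1 was higher and 1 lower than in SAMP8: Magoh, of the exon junction complex, at 0.67, and Cwc22, which recruits that complex, at -0.66. The medians of the list were 0.105 and -0.005.

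In a list of 13 snRNP assembly proteins, which load Sm rings onto small nuclear RNAs, 2 were higher and 1 lower beyond 1.5-fold in SAMP8 against SAMR1. Gemin2, the protein that holds the Sm proteins before loading, averaged 4.50 in SAMR1, 5.45 in SAMP8 and 5.39 with TG. The other higher one, Gemin4, was at 0.72, on a probe set that also names Glod4. Coil, the scaffold of Cajal bodies, averaged 6.59, 5.95 and 6.64 on a probe set that also names another transcript, and its TG-treated average was close to SAMR1. With TG, Coil was 0.69 higher and Wdr77, a cofactor of the enzyme that methylates Sm proteins, was lower by 0.60. Of the 11 SR protein kinases and SR-like proteins, 0 lay beyond 1.5-fold in these 2 comparisons, and the extremes were Clk1, an SR protein kinase, at 0.44 in SAMP8 against SAMR1 and Srrm1, a splicing coactivator, at -0.52 with TG.

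Lists of hnRNP genes and of neuronal splicing regulators were read in the same way. In the list of 19 hnRNP genes, Hnrnpr was the single gene beyond 1.5-fold in SAMP8 against SAMR1, with averages of 8.06 in SAMR1, 9.08 in SAMP8 and 8.44 with TG. It was also the single one beyond that limit with TG. With TG, 14 of the 19 were lower, beside 48.3% of all probe sets, with a median of -0.05. The median size of the differences was 0.06, and some lay near the rounding error, such as Hnrnpc at -0.01. Neuronal splicing regulators, 20 probe sets for 19 genes, had a median of 0.235 in SAMP8 against SAMR1 and -0.16 with TG. Higher by more than 1.5-fold in SAMP8 were Nova2 (0.81), Rbfox1 (0.79), Khdrbs2 (0.69) and Rbfox2 (0.59), and lower with TG were Celf2 (-0.80) and Celf4 (-0.60). These lists are set beside the 58 genes as values, and no difference between lists was tested.

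Markers of hippocampal neurons were present at high signal, with Slc17a7 at 18.02 in SAMR1, 18.12 in SAMP8 and 18.11 with TG, and Camk2a at the top of the range in all 3 groups. The averages of cell type markers differed between the groups as well. The 8 neuron markers had a median of 0.355 in SAMP8 against SAMR1, with 6 higher and 1 lower, and -0.225 with TG, with 6 lower and 1 higher. Prox1, a marker of dentate granule cells, had the largest differences of the 8, with averages of 11.26, 11.85 and 11.00. Neurod6 (-0.01 and 0.03 with TG) and Slc17a7 (0.10 and -0.01 with TG) differed little. Camk2a was at 19.93 in all 3 groups, the highest average on the array, where a difference may not show. The 5 endothelial markers had medians of 0.52 and -0.22, the 6 astrocyte markers 0.145 and -0.07, and the 6 oligodendrocyte markers -0.07 and 0.255. Microglia markers had 0.005 and -0.17, and interneuron markers 0.16 and 0.69. Choroid plexus markers had 0.455 and 0.03, meningeal markers -0.015 and -0.025, and thalamic markers 0.44 and -0.07. Several of these medians cover genes of opposite direction with TG. Gad1 (-0.35) and Gad2 (-0.43) were lower, while Pvalb (0.83), Sst (0.69) and Vip (0.74) were higher. Choroid plexus markers ranged from -0.79 (Kl) to 0.72 (Ttr), and meningeal markers from -1.10 (Ogn) to 0.46 (Lum). Thalamic probe sets ranged from -1.50 (Prkcd) to 0.13, with 3 higher and 5 lower. The part of cell makeup or dissection in the differences of the 58 genes was not tested.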

How the data were processed

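Hippocampal RNA of 9 mice, 3 per group (SAMR1, SAMP8 and TG-treated SAMP8), was measured on gene-level arrays. The deposited values are log2 group averages that the authors made with RMA-type summarization in the Transcriptome Analysis Console (version 4.0.1 in the series text). The 2 tables also hold the authors' own linear fold changes, p-values and adjusted p-values, which were not used. Values of single arrays were not analysed here, so depth, background and replicate spread are not known, and the number of arrays limits the precision. Differences were taken between averages; TG-treated SAMP8 against SAMR1 crosses the tables through identical SAMP8 averages. Counts used a limit of 1.5-fold (0.585 in log2 units), with 1.3-fold and 2-fold, a signal filter, median centering and probe-set rules as alternatives.

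Probe sets were assigned by the symbols in the tables. Gene spans came from the RefSeq GRCm38.p6 gene table, which held 97.2% of probe sets and all 58 spliceosome genes; the build of the deposited files is not given in the sources used here. The text names genes beyond 1.5-fold, the highest and lowest of each class in the comparisons of SAMP8 with SAMR1 and of TG-treated SAMP8 with SAMP8, and Snrpb, Snrpn, Sf3b1, Prpf8 and Srsf1; further genes were chosen for naming with their values known. The genes and lists were chosen with earlier results of these data known. The sources differ on the vehicle (saline or water), the unit of the dose (mg/ml or mg/kg), the software release and whether RNA was run in duplicate. The description field of the sample records names a macrophage cell line and its treatments. Groups were taken from the other labels, which name mice. The neuron markers Slc17a7 and Camk2a were at high signal, while Neurod1 was near the median of all probe sets. Python 3.11.15, pandas 2.3.3, numpy 2.4.6 and matplotlib 3.10.9 were used.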

Additional observations from a re-analysis of the deposited data

How the results depend on the processing

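Of 57 alternative values, 19 moved or changed sign, 7 of them by reversing, and the 1.3-fold limit can only raise or keep counts. Many of the others could not change: main counts of 0 stay at 0 under a 2-fold limit or with fewer probe sets, and each of the 58 genes had a single probe set. At a 1.3-fold limit the counts were 10 higher and 2 lower in SAMP8 against SAMR1, 5 and 8 in TG-treated SAMP8 against SAMP8, and 12 and 6 in TG-treated SAMP8 against SAMR1. The 1 gene higher in TG-treated SAMP8 than in SAMR1 became 0 at a 2-fold limit and 3 after median centering, which brings Lsm3 and Sf3b2, both at 0.58, past the limit. The gap between small and large classes in TG-treated SAMP8 against SAMR1, -0.005, became 0.075 once the weakest 25% by signal were left out. This gap of -0.005 and that of 0.01 in SAMP8 against SAMR1 lie within the rounding error of 0.02, so their sign is not determined. The following splits were chosen after seeing the data. Among genes up to 10 kb the gap was -0.08 in SAMP8 against SAMR1, 0.245 in TG-treated SAMP8 against SAMP8 and 0.27 in TG-treated SAMP8 against SAMR1, and from 10 to 30 kb it was 0.055, -0.16 and -0.25. In the 25% of probe sets just below the top 25% by signal it was 0.365, -0.035 and 0.32, and in the top 25% it was 0.235 in TG-treated SAMP8 against SAMR1. These splits hold as few as 3 genes of a class, and the cause of the changes was not tested. Classes by protein length were not run, and neither was leaving out a mouse. No paired analysis was possible because the tables hold 1 average per group.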
